A study of Arabidopsis thaliana with 4 samples.

Results

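Gene expression was compared between the lower and the upper flank of Arabidopsis thaliana inflorescence stems that had been turned on their side for 10 min. The comparison consists of the 2 dye-swapped arrays labelled with that time, out of 4 arrays in the series. The other 2 arrays hold the same comparison after 30 min and are used here only to show where the 10 min flanks differ from the later ones. All plants were ecotype Col, kept as seed at 4 °C for 3 days, raised on plates for 10 days and grown at 23 °C to primary stems of 4 to 8 cm, and no transgene or mutation is named in the labels. They were laid horizontally under dim light without direction at 23 °C, so that lower and upper flanks came from the same stimulated stems. The top 5 mm of each stem was discarded, and the 3 cm beneath it was split by hand along its length into a lower and an upper flank. From 500 ng of RNA, amplified RNA was made and dye-labelled, and the flanks were hybridised against each other. The lower flank carried Cy5 on replicate 1 and Cy3 on replicate 2. Upright, unstimulated stems were not analysed here, so a flank difference cannot be assigned to a change in the lower or in the upper flank. The labels call the arrays biological replicates, yet the labelling protocol describes each amplified RNA as labelled with both dyes, so p-values may measure technical spread only.

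A shoot laid on its side bends upward because its lower flank elongates more than its upper flank. Starch-filled plastids in the starch sheath settle to the new lower side, efflux carriers of the PIN family redirect auxin, and auxin accumulates in the lower flank. Auxin removes Aux/IAA repressor proteins and thereby switches on early response genes within minutes. Among these, SAUR genes encode small short-lived proteins that keep plasma membrane proton pumps active by inhibiting PP2C.D phosphatases, Aux/IAA genes encode the repressors themselves, and GH3 genes encode enzymes that conjugate auxin.

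Values below are log2 ratios of lower over upper flank, positive where the lower flank was higher, and each ± is a standard error from the fit. Of 20219 genes on the array, 18286 passed the filter on dim probes, and 18101 of these had a ratio on both 10 min arrays. At 10 min the lower flank was well above background for 90.9% and 86.0% of gene probes and the upper flank for 87.8% and 88.2%. Ratios were narrow, with an SD over genes of 0.0949 on replicate 1 and 0.0783 on replicate 2. Over the 17754 genes measured on all arrays, which share labelling and scanner, the ratios of replicate 1 and replicate 2 correlated at -0.0587 after 10 min and at 0.436 after 30 min. The part of each ratio that followed the dye correlated at 0.867 between the times. The SD of this dye part at 10 min was 0.0629, about as large as the SD of 0.0594 of the mean flank ratio.

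No gene passed limma's test at an adjusted p under 0.05 (0 of 18234, 0%). The smallest adjusted p was 0.367, and 1115 genes (6.11%) had an unadjusted p under 0.05, of which 581 (3.19%) were higher in the lower flank and 534 (2.93%) in the upper flank. With dye orientation added as a term, the replicate block, 4224 genes (23.2%) passed, 2151 (11.8%) higher in the lower flank and 2073 (11.4%) higher in the upper flank. Their median ratios were 0.09 and -0.08, and only 46 and 12 of them reached a 1.2-fold mean difference. The gene descriptions below therefore rest on what both arrays showed, and in this fit of all 4 arrays without the dye term no adjusted p at 10 min lay under 0.367. With the 10 min arrays fitted alone, without the dye term, 86 genes passed, and leaving out 1 array gave 44 to 104.

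A more direct reading asks which genes passed a 1.2-fold ratio with equal sign on each array. By this measure 26 genes favoured the lower flank (0.144% of genes on both arrays) and 5 genes favoured the upper flank (0.0276%). For comparison, 21 genes (0.116%) passed 1.2-fold with opposite signs, following the dye. Dye orientation goes with replicate number at both times, so dye bias and a difference between the replicates cannot be told apart in that count. It does not estimate how many same-sign genes are false. No gene (0%) passed 1.5-fold with equal sign, while 3 (0.0166%) did so by dye. With the deposited processed signals the counts were 100 for the lower and 42 for the upper flank, and with median centring in place of loess they were 14 and 2. The 26 genes higher in the lower flank held 12 SAUR genes and 14 genes of no auxin-induced list.

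**Figure D1:**
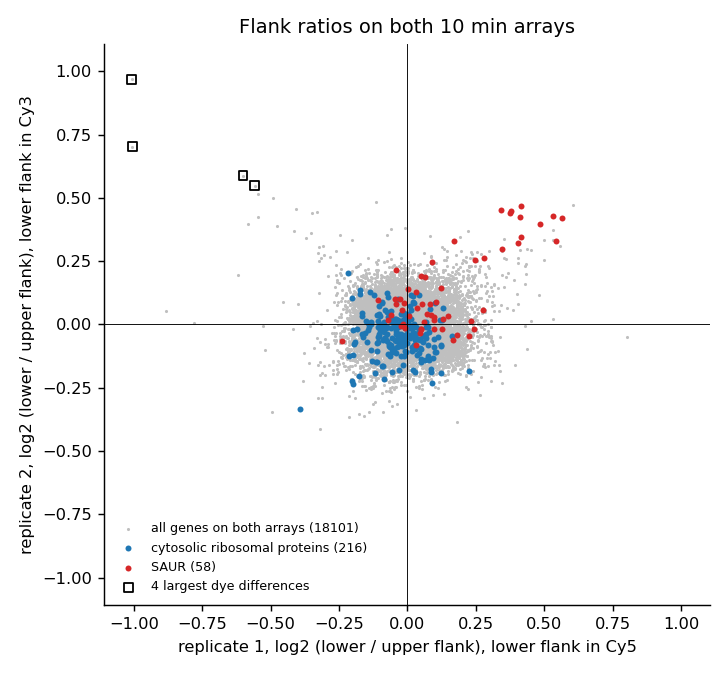
Each point is a gene, with its log2 ratio of lower over upper flank on replicate 1 (horizontal axis) and replicate 2 (vertical axis) after 10 min. SAUR genes (58) reach into the upper right, where both arrays put the lower flank higher, cytosolic ribosomal protein genes (216) lie slightly toward the lower left, and the 4 largest dye differences lie in the upper left.

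SAUR genes, small auxin-induced growth genes, were often higher in the lower flank. Of 78 members 64 were on the array and 58 were tested, of which 35 (60.3%) were above 0 on both arrays and 3 (5.17%) below 0 on both. Over all genes on both arrays the shares were 22.4% and 20.6%, and the counts of every later list are to be read against these. The SAUR median was 0.07, against 0.00 over all genes tested. With the dye term 33 SAUR genes (56.9%) passed as higher in the lower flank and 1 (1.72%) as higher in the upper flank, against 11.8% and 11.4% of all genes. Most of the large SAUR ratios lay in 2 runs of neighbouring genes.

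The first run comprises SAUR19 to SAUR24, whose products promote cell expansion. Their probes lie on chromosome 5 between positions 5963107 and 5983992, in coordinates of the array files (genome build not given in the sources used). SAUR24 had normalised log2 signals of 9.80 and 9.75 in the lower flank, against 9.26 and 9.32 in the upper flank on replicates 1 and 2. Both lower-flank signals thus lay above both upper-flank signals. The ratios were 0.53 and 0.43, with a mean of 0.48 ± 0.04 (n = 2 arrays, 1.39-fold, limma adjusted p 0.367). Genes described here and below as having separate flanks were picked for equal sign on both arrays. Such separation therefore follows in part from the pick, and its share over all genes was not computed. SAUR21 had ratios of 0.41 and 0.47. SAUR20 had ratios of 0.48 and 0.40. On both arrays all 6 genes of the run gave more signal in the lower flank, with means of 0.40 to 0.48 and no single array below 0.34. These genes are near-identical in sequence, and whether each probe told its gene from its neighbours was not tested.

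The second run, SAUR61 to SAUR68, lies on chromosome 1 between positions 10303093 and 10323071, with 6 members tested. SAUR63, which promotes elongation of hypocotyls and stamen filaments, had log2 signals of 10.21 and 10.01 in the lower flank, against 9.64 and 9.58 in the upper flank. The flanks did not overlap, and the mean ratio was 0.49 ± 0.05, or 1.41-fold. SAUR66 had nearly equal ratios of 0.41 and 0.43. SAUR65, SAUR64 and SAUR68 had mean ratios of 0.44, 0.38 and 0.36. The weakest member, SAUR62, had 0.09 and 0.25. All 6 were above 0 on both arrays, with a median of 0.40, close to the median of 0.43 in the first run.

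Other SAUR genes differed less. In the SAUR14 to SAUR16 run, SAUR15 had ratios of 0.34 and 0.30 and SAUR14 had 0.25 and 0.25. In the SAUR26 to SAUR29 run, all 3 members tested were above 0 on both arrays, with a median of 0.12, and SAUR29 had ratios of 0.17 and 0.33. The 40 members outside these 4 runs had a median of 0.05, with 18 above 0 on both arrays and 3 below. SAUR78 was the highest of these at 0.28 and 0.26, and its ratio after 30 min was only 0.01. SAUR25 had 0.12 and 0.14. SAUR32 had ratios of 0.27 and 0.06, so that its replicates disagreed about the size. At the other end SAUR48 had ratios of -0.24 and -0.07.

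**Figure D2:**
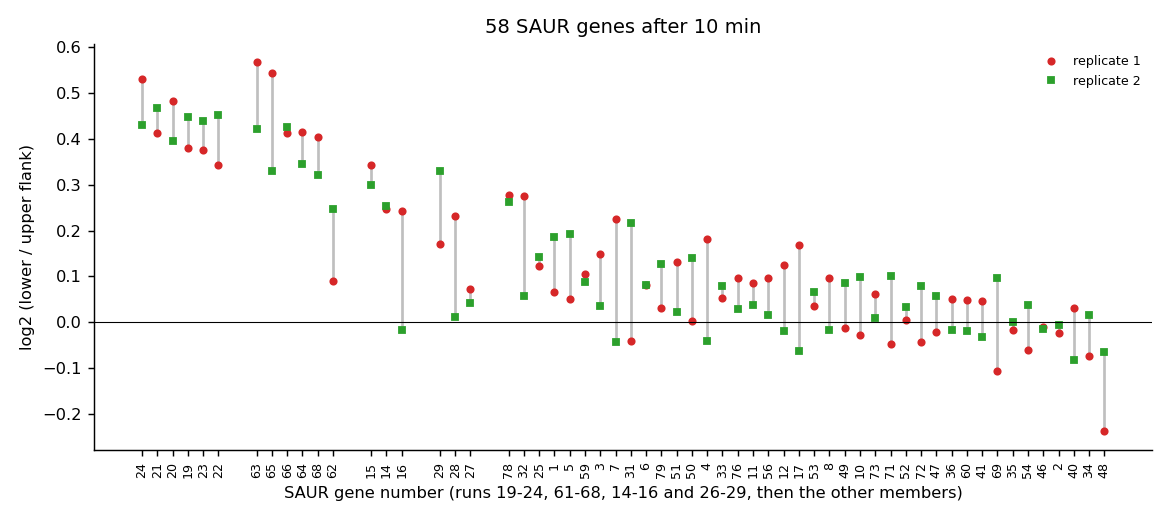
Log2 ratios of lower over upper flank after 10 min for 58 SAUR genes, with a circle for replicate 1 and a square for replicate 2. Along the horizontal axis genes are labelled by number and ordered by falling mean ratio within each run, not by position. The 6 genes of the SAUR19 to SAUR24 run and the 6 of the SAUR61 to SAUR68 run are above 0 on both arrays, the SAUR14 to SAUR16 and SAUR26 to SAUR29 runs follow to their right, and the 40 members outside these 4 runs have a median of 0.05.

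The other auxin-induced families had few genes far from 0 at 10 min. Of 24 Aux/IAA genes tested, 23 had both ratios, and the median was 0.00. Above 0 on both arrays were 7 (30.4%) and below 5 (21.7%), against 22.4% and 20.6% of all genes. IAA5, among the most auxin-responsive of these repressors, had log2 signals of 7.71 and 7.76 in the lower flank, against 7.59 and 7.64 in the upper flank. The lower flank was higher on both arrays, by 0.11 on each, but the difference was 1.08-fold. IAA1 had ratios of 0.08 and 0.19, IAA17 0.11 and 0.16, and IAA28 0.15 and 0.14. IAA9 lay the other way at -0.11 on both. IAA6 had ratios of 0.03 and -0.03, so its direction was not settled. IAA19, a repressor linked to hypocotyl growth, had a ratio on replicate 2 alone, of -0.09, because its spot on replicate 1 was marked as an outlier and dropped. Among 8 GH3 genes 4 were above 0 on both arrays and 2 below. GH3.6 was highest with 0.24 and 0.18, while GH3.3 had 0.12 and 0.01. HAT2, an auxin-induced homeodomain-leucine zipper gene, had ratios of 0.07 and -0.05, and of its group of 10 tested genes 1 was above 0 on both arrays and 3 below, among them HAT3 at -0.07 and -0.16.

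Genes that move, perceive or redirect auxin also lay close to 0. Of 27 transport and perception genes 2 (7.41%) were above 0 on both arrays and 8 (29.6%) below, with a median of -0.01. Over all genes the shares were 22.4% and 20.6%. PIN3, the efflux carrier that relocates in gravistimulated cells, had ratios of -0.03 and 0.04. The influx carriers LAX2 and LAX3 had mean ratios of -0.11 and -0.07. Of 10 gravity sensing genes none was above 0 on both arrays and 1 was below, namely PGM, the plastid phosphoglucomutase needed for starch, with -0.13 and -0.06. Of 11 plasma membrane proton pump genes 3 were above 0 on both arrays and 2 below, one of them HA11, at -0.23 and -0.08. Of 7 PP2C.D phosphatase genes 2 were above 0 and 1 below.

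Outside the SAUR family, the gene with the largest ratio shared by both arrays was AT1G64370, which the array annotates only as an expressed protein. It had log2 signals of 8.10 and 8.03 in the lower flank, against 7.49 and 7.55 in the upper flank. Both lower-flank signals were higher than both upper-flank signals, and the ratios of 0.61 and 0.47 gave a mean of 0.54 ± 0.05, or 1.45-fold. NIP6;1, a boric acid channel that distributes boron in shoots, had log2 signals of 8.64 and 8.54 in the lower flank, against 8.11 and 8.16 in the upper flank. Its flanks did not overlap either, and its mean ratio was 0.45 ± 0.05.

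Further genes higher in the lower flank were named after their values had been seen, so they stand for no group. SULTR2;1, a low-affinity sulfate transporter of vascular tissue, had ratios of 0.53 and 0.34. NRT1.5, which loads nitrate into the xylem, had ratios of 0.56 and 0.31. NAS4, an enzyme that makes the metal chelator nicotianamine, had 0.45 and 0.29. The metallothioneins MT2B and MT1A had mean ratios of 0.37 and 0.35, TRX5, a thioredoxin, had 0.33, and the uncharacterised AT2G25510 had 0.42. All of these were larger on replicate 1 than on replicate 2. BGL2, a glucanase induced by salicylic acid, had ratios of 0.35 and 0.29, and DMR6, which hydroxylates salicylic acid, had 0.30 and 0.29.

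Genes of the circadian clock lay in both directions. CCA1, a MYB repressor at the core of the clock, had log2 signals of 8.81 and 8.79 in the lower flank, against 8.46 and 8.45 in the upper flank. The flanks did not overlap and the replicates were nearly equal, with a mean of 0.35 ± 0.03. Its partner LHY had ratios of 0.26 and 0.29, and the related MYB genes RVE2 and RVE1 had mean ratios of 0.31 and 0.17. COL2, a CONSTANS-like gene outside the list, had 0.27 and 0.28. Of 15 clock genes tested 5 (33.3%) were above 0 on both arrays and 6 (40%) below, against 22.4% and 20.6% of all genes. The list median was -0.02. The 6 below included the evening genes LUX, at -0.07 and -0.26, and GI, at -0.22 and -0.05, and the size of both differed between replicates. CCR1, a clock-regulated glycine-rich RNA-binding protein also known as GRP8, was higher in the upper flank at -0.31 and -0.25.

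The upper-flank genes showed smaller differences. P58IPK, a chaperone partner of the endoplasmic reticulum, had log2 signals of 15.29 and 15.45 in the lower flank, against 15.78 and 15.80 in the upper flank. The upper flank was higher on both arrays, with a mean ratio of -0.42 ± 0.10, but 1 of these 4 values was saturated. PHB3, a prohibitin of the mitochondrial inner membrane, had log2 signals of 9.23 and 9.14 in the lower flank, against 9.55 and 9.56 in the upper flank. Its flanks did not overlap, and the mean ratio was -0.37 ± 0.06. PHB4, a close relative of PHB3, had -0.33 and -0.16, while the other 5 prohibitin genes had ratios of opposite sign on the 2 arrays. AKR2, which guides proteins to the chloroplast envelope, had ratios of -0.33 and -0.29. UMAMIT33, of a family of amino acid transporters, had -0.31 and -0.29. AT2G42520, a DEAD box RNA helicase, had -0.38 and -0.22, and GRP3S, a glycine-rich protein, had -0.21 and -0.36. AT3G54400, an aspartyl protease, and AT4G31090, of unknown role, each had a mean of -0.25, and AT4G09760, annotated as a putative choline kinase, had -0.21.

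**Figure D3:**
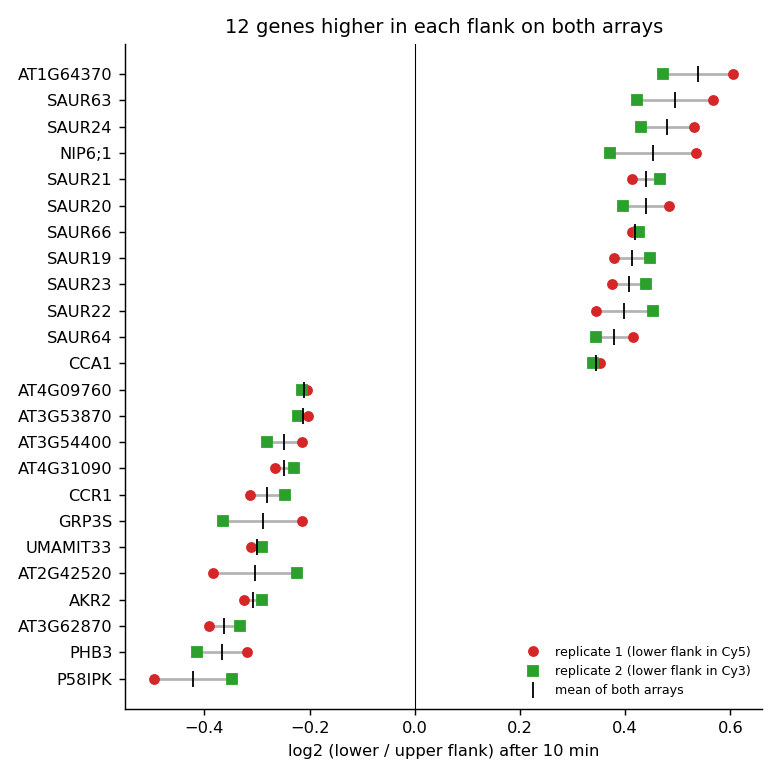
Log2 ratios of lower over upper flank after 10 min for the 12 genes with the largest ratio shared by both arrays in each direction, with a circle for replicate 1, a square for replicate 2 and a bar for their mean. Of the 12 genes higher in the lower flank 9 are SAUR genes, and the mean furthest toward the upper flank is -0.42, of P58IPK, for which 1 of 4 signals was saturated.

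Genes of cytosolic ribosomal proteins, which build the translation machinery, lay slightly toward the upper flank. Of 236 members 222 were tested and 216 measured on both arrays. Of these 18 (8.33%) were above 0 on both arrays and 92 (42.6%) below, and the list median was -0.03. With the dye term 9 (4.07%) passed as higher in the lower flank and 67 (30.3%) as higher in the upper flank, against 11.8% and 11.4% of all genes. With median centring in place of loess the counts were 3 above and 14 below at a median of -0.03, so that fewer of these genes kept a sign on both arrays. The gene with the largest difference was AT3G62870, a protein of the large subunit, with log2 signals of 9.54 and 9.57 in the lower flank, against 9.94 and 9.90 in the upper flank. Its flanks did not overlap, with a mean ratio of -0.36 ± 0.04. RPL10B had ratios of -0.20 and -0.23, AT3G53870 of the small subunit -0.20 and -0.22, and BBC1 of the large subunit -0.18 and -0.20.

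Genes of the photosystems, light harvesting and the Rubisco small subunit, which form 1 list, lay the other way. Matching by symbol also put PSAT, PSAT1 and PSAT2 in the list, which are not genes of these kinds. They are included in all counts and medians given for it. Of 52 tested 48 had both ratios, 22 (45.8%) were above 0 on both arrays and 5 (10.4%) below, with a median of 0.06. Means ran from -0.42 to 0.19. No gene of the list passed 1.2-fold with equal sign on both arrays, so the lowest mean was not shared by both at that size. The dye term gave 25 (50%) as higher in the lower flank and 6 (12%) as higher in the upper flank, against 11.8% and 11.4% of all genes. LHCB4.3, an antenna protein of photosystem II, had ratios of 0.18 and 0.20. PSAN, a subunit of photosystem I, had 0.13 and 0.12, and the Rubisco small subunit gene RBCS1B had 0.12 and 0.16. PSBR of photosystem II had -0.30 and -0.17, with 1 saturated value. The bright RBCS1A followed the dye, at -1.01 and 0.70, with 3 of its 4 values saturated.

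Markers of the tissues in a stem were expressed in both flanks. Because each flank is a mixture of cells, fewer cells of a type and less RNA per cell cannot be told apart. Of 8 phloem and cambium markers 5 (62.5%) were above 0 on both arrays and none below, against 22.4% and 20.6% of all genes. Their median was 0.06, with a range of 0.00 to 0.19. The sieve-tube lectin gene PP2-A1 had 0.23 and 0.15 and the sieve element filament gene SEOR1 had 0.11 and 0.06. Medians were 0.02 for 14 markers of photosynthetic cortex, 0.00 for 9 of the epidermis list, 0.00 for 10 of xylem and fibre, 0.02 for 4 of the starch sheath and -0.01 for 3 of guard cells. The epidermis list took FDH by symbol as AT5G14780, a formate dehydrogenase gene and no epidermis marker. It counts among the 9 and was not left out of the values given for this list. Means reached from -0.06 to 0.07 for xylem and fibre and from -0.07 to 0.06 for epidermis. All 8 phloem, 10 xylem, 9 epidermis and 4 starch sheath markers were well above background in both flanks on both arrays. The part of unequal phloem or cortex in the lower-flank values of SULTR2;1, MT2B and the photosystem genes was not tested. All cortex markers also belong to the photosystem list, so they give no separate measure of cortex. The 6 flower markers tested had a median of 0.02 and the 6 root markers 0.00. Seed storage markers were dim, with 2 of 5 well above background throughout, and only 1 of 2 pollen markers tested was so.

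Other hormone and stress lists had medians between -0.03 and 0.06. Their counts compare with 22.4% of all genes above 0 on both arrays and 20.6% below. Type-A response regulators, which cytokinin induces and which dampen its signal, were above 0 on both arrays in 6 of 10 genes and below in none. ARR6 had ratios of 0.15 and 0.18, ARR7 0.15 and 0.10, ARR5 0.09 and 0.13, and ARR9 0.07 and 0.08. Of 11 genes of ethylene synthesis and reception none was above 0 on both arrays and 4 were below, including the synthase gene ACS6 at -0.11 and -0.11 and the receptor gene ETR2 at -0.13 and -0.15. Of 9 JAZ repressor genes of jasmonate signalling 1 was above and 5 below, with JAZ2 at -0.09 and -0.15 and JAZ3 at -0.08 and -0.11.

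Of 19 touch and rapid stress genes 4 (21.1%) were above 0 on both arrays and 5 (26.3%) below, against 22.4% and 20.6% of all genes. The calmodulin-like TCH3 had 0.18 and 0.21, whereas the stress factors STZ and ERF5 had mean ratios of -0.13 and -0.10. Among 11 gibberellin oxidase genes 2 were above and 2 below, with GA2OX1, which inactivates gibberellin, at -0.19 and -0.08. Brassinosteroid synthesis genes had 1 of 11 in each direction. PRE1, a growth-promoting helix-loop-helix gene, had 0.20 and 0.07. The only other PRE gene tested had a mean of -0.16, with opposite signs on the 2 arrays. Of 7 genes induced in darkness 3 were above and 3 below, with DIN3, of branched amino acid breakdown, at -0.08 and -0.12.

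Cell wall loosening genes were mixed. Of 25 expansin genes 5 (20%) were above 0 on both arrays and 5 (20%) below, close to the 22.4% and 20.6% of all genes. EXPA1 stood out, with log2 signals of 10.24 and 10.20 in the lower flank, against 9.94 and 9.97 in the upper flank. Its flanks did not overlap and its mean ratio was 0.26 ± 0.04. Of 29 xyloglucan endotransglucosylase/hydrolase genes with both ratios 11 were above 0 on both arrays and 4 below. Their median was 0.02 here and -0.03 with median centring. XTH33 had ratios of 0.20 and 0.24 and XTH4 had 0.15 and 0.17.

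**Figure D4:**
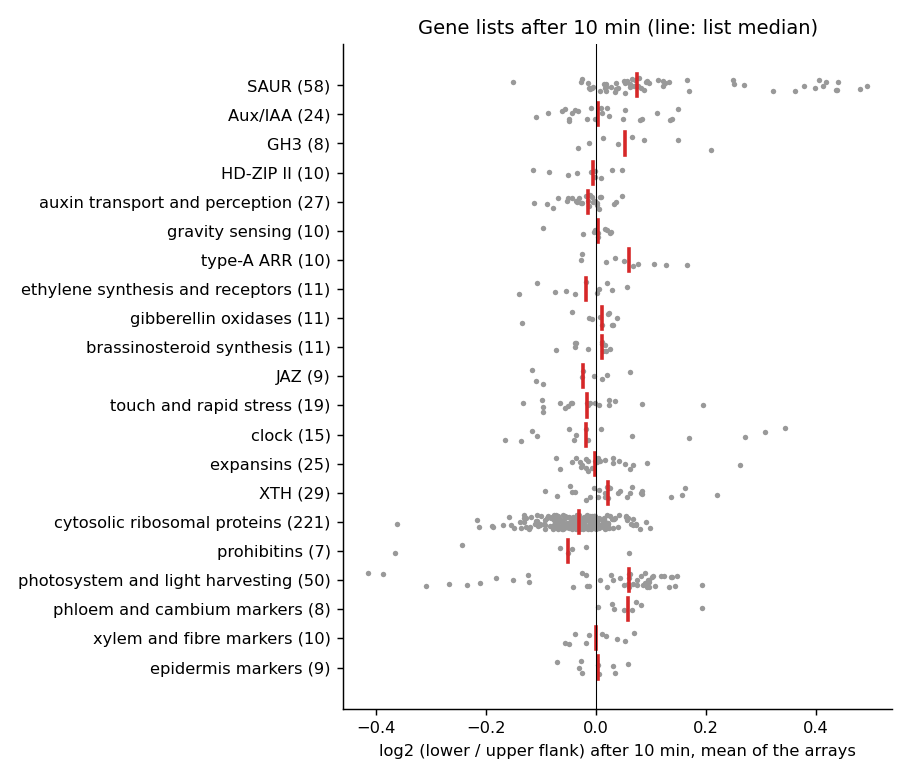
Mean log2 ratio of lower over upper flank after 10 min for each gene of 21 lists (grey points, number of genes in parentheses) and the list median (line). The SAUR list has a median of 0.07 and a tail of genes beyond 0.30, while cytosolic ribosomal protein genes have a median of -0.03.

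The genes that differed most by dye give the size of the dye effect that 2 swapped arrays must average out. They do not measure random error. CRK20, a receptor-like kinase gene, had ratios of -1.01 and 0.97. CRU2, of a seed storage protein, had -0.60 and 0.59, and AT5G59680 had -0.56 and 0.55. Their means were near 0, at -0.02, -0.01 and -0.01, and the direction of these means was not settled.

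The last comparison asked where the flank difference at 10 min differed from that at 30 min. Of 18167 genes 23 passed limma's test of the difference at an adjusted p under 0.05 (0.127%). In 19 of these (0.105%) the ratio was lower at 10 min, namely 9 SAUR genes, 3 Aux/IAA genes and 7 others, and in 4 (0.022%) it was higher at 10 min. With the dye term 3454 genes (19%) passed as higher at 10 min and 3425 (18.9%) as lower, and with median centring in place of loess none did.

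IAA5 differed most. Its mean ratio was 0.11 at 10 min and 2.28 at 30 min, a difference of -2.17 ± 0.05 (limma adjusted p 0.00339, n = 2 arrays per time). HAT2 had 0.01 and 1.19, a difference of -1.18 ± 0.06 (adjusted p 0.0129), and AT5G66580 had 0.17 and 1.91. SAUR19 had 0.41 at 10 min and 1.68 at 30 min, a difference of -1.26 ± 0.05 (adjusted p 0.0118). The SAUR19 to SAUR24 run as a whole had a median of 0.43 at 10 min and 1.61 at 30 min, and the SAUR61 to SAUR68 run had 0.40 and 1.19. ARR7 had 0.13 at 10 min and 0.88 at 30 min, and passed as well.

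The 4 genes higher at 10 min changed direction between the times in their fitted means. AT1G78170, of unknown role, had 0.19 at 10 min and -0.997 at 30 min, a difference of 1.19 ± 0.05 (adjusted p 0.0118). BT2, a scaffold protein gene repressed by sugar and induced by nitrate, had 0.20 and -0.74. The nitrate reductase gene NIA1 had 0.15 and -0.54, and AT1G79160 had 0.06 and -0.79. ATPMEPCRD, a pectin methylesterase gene, had 0.18 and -0.39 and did not pass (adjusted p 0.0576), but passed with the dye term (adjusted p 1.48e-05).

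Of the 26 genes that favoured the lower flank by 1.2-fold at 10 min, 16 were above 0 on both 30 min arrays and 7 below 0 on both. These 16 held all 12 SAUR genes together with CCA1, DMR6, BGL2 and TRX5, and no SAUR gene was among the 7. NIP6;1 had 0.45 at 10 min and -0.01 at 30 min, AT1G64370 had 0.54 and -0.14, and MT1A had 0.35 and -0.45. None of these 3 differences passed limma's test, with adjusted p of 0.144, 0.0822 and 0.0831. BGL2 had 0.32 at 10 min and 1.39 at 30 min and did not pass either (adjusted p 0.0822). With the dye term all 4 differences passed, at limma adjusted p of 5.56e-05, 6.63e-06, 7.20e-06 and 0.000103. Of the 5 that favoured the upper flank at 10 min, 4 were above 0 on both 30 min arrays, among them PHB3 with -0.37 at 10 min and 0.17 at 30 min. The shares of all genes above or below 0 on both 30 min arrays were not computed. The counts of 16, 7 and 4 therefore do not show that these genes kept or changed direction more often than others.

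Some list medians differed between the 2 times, several of them in sign. Cytosolic ribosomal protein genes had a median of -0.03 at 10 min and 0.12 at 30 min, and with the dye term 176 of 217 passed as lower at 10 min and 1 as higher, where 18.9% and 19% of all genes did. The photosystem list, PSAT genes included, had 0.06 at 10 min and -0.13 at 30 min. In it 34 of 50 passed as higher at 10 min and 3 as lower, where 19% and 18.9% of all genes did. Phloem and cambium markers had 0.06 and -0.07, xylem and fibre markers 0.00 and -0.10, and the epidermis list 0.00 and -0.18. These marker medians were lower at 30 min, like the photosystem median and unlike the ribosomal one. Starch sheath markers had 0.02 and 0.01 and guard cell markers -0.01 and -0.03. The part of tissue content in these values was not tested. Without the dye term no gene of these lists passed.

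**Figure D5:**
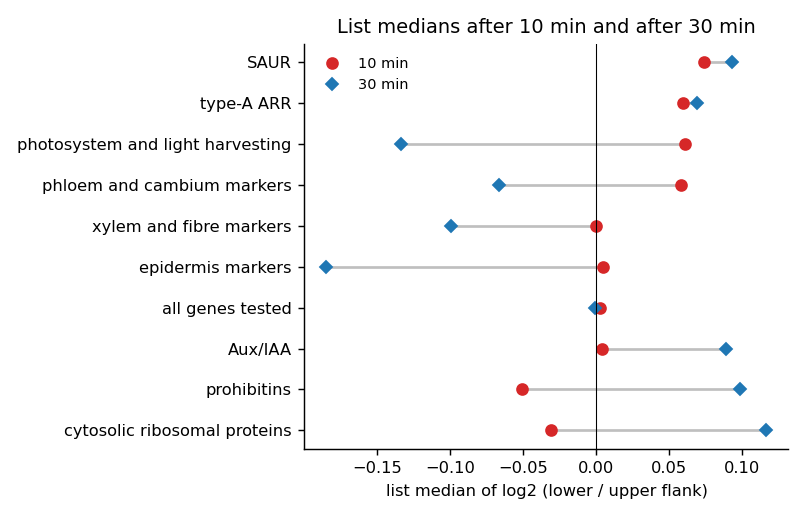
Median log2 ratio of lower over upper flank of 10 gene sets after 10 min (circles) and after 30 min (diamonds). Ribosomal protein genes stand at -0.03 after 10 min and 0.12 after 30 min, the photosystem list at 0.06 and -0.13, and the SAUR list at 0.07 and 0.09.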

How the data were processed

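Lower and upper flanks of the same time were hybridised together on 2-colour Agilent arrays, 2 per time. Per the file headers, Feature Extraction 8.1.1.1 read the spots. The deposited intensity values used here were mean spot signals and median local background, with nothing subtracted. The authors' processed intensity values, their deposited log10 ratio and the authors' series table of log10 ratios (columns with medians of 0, -0.00128, 0 and -0.00264, whose direction of lower over upper flank followed from the scanner values) served as alternatives. The deposited flags (other values of 0 or 1) marked saturated, outlier and well-above-background spots.

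In limma 3.58.1 under R 4.3.3, background was corrected by normexp with an offset of 50, which draws ratios of dim probes toward 0, and ratios were loess-normalised. The 1075 control spots per array, and 124 and 120 outlier spots of the 10 min arrays, were left out. Of 21500 gene probes 20269 named 1 locus, 168 several and 1063 none, and 20187 of the one-locus probes matched the RefSeq table (TAIR10.1) used for symbols while 82 did not. The brightest probe stood for a gene (49 genes had several), and a gene was tested if well above background on both arrays of a flank at either time. Log2 ratios of lower over upper flank from all 4 arrays were fitted with a mean per time (lmFit, eBayes), with Benjamini-Hochberg adjustment over all genes. Simulated data were used to check the code. The pass condition applied only to the fit with the dye term, so it does not measure how well the reported fit finds differences. The replicate block adds a term for the replicate number, which marks dye orientation. Same-numbered arrays of the 2 times deviated together (correlation 0.867), and because the number is the dye orientation this does not show a shared plant or day. It leaves a single residual degree of freedom per gene beside the prior. Slide and time could not be separated, since each array was a slide of its own.

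Genes were named by rule: the 12 in each direction with the largest smaller ratio of both arrays, up to 4 per list, the 5 in each direction with the smallest p for 10 minus 30 min, the 4 largest dye differences, and IAA5, IAA1, IAA19, GH3.3, HAT2 and PIN3. Others were added after their values were seen. The comparison and all lists were chosen with earlier results of these data known. The alternatives tried were an offset of 16, processed signals, the series table, median centring, both filters, means over probes, each time alone, the replicate block and leaving out each array. Array number limits the precision.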

Additional observations from a re-analysis of the deposited data

Results flagged for a closer look

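For 18 of the genes named above, the flank difference at 10 min differed from that at 30 min by limma's test of the difference (adjusted p under 0.05, 2 arrays per time). The ratio was lower at 10 min, on the log2 scale, by -2.17 for IAA5, -1.74 for AT5G66580, -1.18 for HAT2, -0.90 for IAA6 and -0.76 for ARR7. Among SAUR genes the difference was -1.26 for SAUR19, -1.23 for SAUR22, -1.20 for SAUR25, -1.17 for SAUR24, -1.16 for SAUR23, -1.15 for SAUR21, -1.12 for SAUR20, -1.10 for SAUR66 and -0.94 for SAUR63. The ratio was higher at 10 min by 1.19 for AT1G78170, 0.94 for BT2, 0.85 for AT1G79160 and 0.69 for NIA1.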

How the results depend on the processing

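Of 101 named genes, 94 kept the direction of their 10 min ratio in every one of the 13 settings that gave a value. In several settings this was fixed in advance. Each time alone and the fits without a 30 min array leave the 10 min mean unchanged. So do both filters, means over probes for genes with 1 probe, and the replicate block for genes measured on all arrays. Genes named for equal sign on both 10 min arrays could not reverse when 1 of these was left out. The count called at 10 min was 0 in the fit reported, 86 with each time fitted alone, 4224 with the replicate block, and 44 to 104 when 1 array was left out. The count called for 10 minus 30 min was 23 in the fit reported, 2 with the processed signals, 2 with the series table, 0 with median centring, 6879 with the replicate block and 237 to 430 when 1 array was left out. These leave-one-out fits assume that the lone array varies like the others. The counts at 1.2-fold on each array, 26 for the lower and 5 for the upper flank, were 41 and 8 at an offset of 16, 100 and 42 with the processed signals, 100 and 42 with the series table, and 14 and 2 with median centring. The mean of CRK20 reversed to 0.071 at an offset of 16 and to 0.30 with processed signals and with the series table. In these settings CRU2 reversed to 0.050, 0.36 and 0.36, and AT5G59680 to 0.021, 0.063 and 0.063. With either 10 min array left out, CRK20 ran from -1.01 to 0.97, RBCS1A from -1.01 to 0.70, CRU2 from -0.60 to 0.59, AT5G59680 from -0.56 to 0.55, HAT2 from -0.048 to 0.066, PIN3 from -0.032 to 0.043 and IAA6 from -0.030 to 0.027. IAA6 was 0.0021 with processed signals and with the series table. The Aux/IAA median reversed to -0.0055 with processed signals, -0.0055 with the series table and -0.0044 with median centring, and the xyloglucan enzyme median to -0.031 with median centring. With the replicate block 92 of the 101 named genes passed. This block keeps the 10 min mean of genes measured on all arrays, so their direction could not change. The cause of these shifts was not tested. Signal over background limits dim genes such as CRU2, and 2 arrays limit every p.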
